A study of Populus x canadensis with 12 samples.

Results

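Leaf transcript levels of 4 poplar plants under moderate drought (stage D1) were compared with those of 4 watered control plants (stage C), 8 of the 12 libraries of the series. Libraries were assigned by the stage and clone given in their labels; the other 4 libraries, of severe drought (D2), are given beside the results without a test. All plants were rooted greenhouse cuttings of hybrids between a Populus deltoides mother and a Populus nigra father (Populus x canadensis). Both stages had 2 plants from each of the hybrids 85 and 89, and every plant has its own clone number and library. Plants are named by stage, hybrid and replicate number, so that C 85 plant 1 is replicate 1 of hybrid 85 in C. Water was withheld for 8 or 13 days, per the labels, but which stage had which is not stated in them, so D1 is given no number of days here. Plant age and harvest day by stage are likewise not given in the sources used here, and differences of time cannot be told apart from drought. The labels add that the plants differed in RWC, a term they do not spell out, and give no value of it per plant. The 2 hybrids come from 1 cross, so they are not a sample of poplar genotypes.

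Leaves lose water through stomata, the pores of the epidermis, and a plant short of water closes them under the hormone abscisic acid, which also limits carbon dioxide uptake. In many plants drought is known to raise transcripts of protective proteins and of enzymes for compatible solutes, and to lower those of growth and photosynthesis. Hybrids of these poplars grow fast and use much water, which makes them common subjects of drought studies. The deposited table does not pair its gene identifiers with names, and no annotation was used here. The tissue and the stress named in the labels could therefore not be checked against marker genes, and genes are given by identifier, by the chromosome number in it and by level. Leaf RNA comes from all cell types of the leaf, so fewer cells of a type and less RNA per cell cannot be told apart.

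Levels are RPKM as the authors computed them, that is, reads divided by the length of the gene model and by the reads of the library. The read totals recovered from the steps between values were 2534325 to 10509089 in C and 3181833 to 4847233 in D1. Of 41335 identifiers, 22557 reached 1 RPKM in at least 4 of the 8 libraries and were tested. At their median coding length of 1128 bp, 3 reads were worth 0.253 RPKM in the library with the most reads and 1.05 RPKM in that with the fewest. The number of genes at 1 RPKM or more was 21897 ± 739 in C and 22314 ± 628 in D1 (SD, n = 4). This difference was not detected (two-sided exact permutation p = 0.371; 4 against 4 libraries cannot go below 0.0286).

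One control stood apart from the others toward D1. Over the 22557 genes, C 85 plant 1 had a mean Pearson correlation of 0.927 with the other controls. The other controls had 0.910 to 0.932 with their fellow controls, so C 85 plant 1 did not differ there. With the D1 libraries its mean was 0.899, against 0.824 to 0.861 for the other controls. On the first principal component, with 40.4% of the variance, that plant lay at -9.67, the other controls between -67.3 and -59.9, and the D1 plants between -1.50 and 94.6. It was also the most deeply sequenced library, and the part of depth in its position was not tested. Among the D1 plants, D1 89 plant 1 lay nearest the controls on that component, at -1.50. Its mean correlation was 0.881 with the controls and 0.884 with the other D1 plants. Those other D1 plants had 0.839 to 0.864 with the controls and 0.889 to 0.905 with their fellow D1 plants. The second component, with 24.6%, separated the hybrids within D1: hybrid 89 lay at -77.8 and -79.7 and hybrid 85 at 39.3 and 30.5. The 2 plants of a hybrid in D1 correlated at 0.961 in hybrid 85 and 0.946 in hybrid 89, against a mean of 0.865 across hybrids in D1 and 0.918 across hybrids in C.

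**Figure D1:**
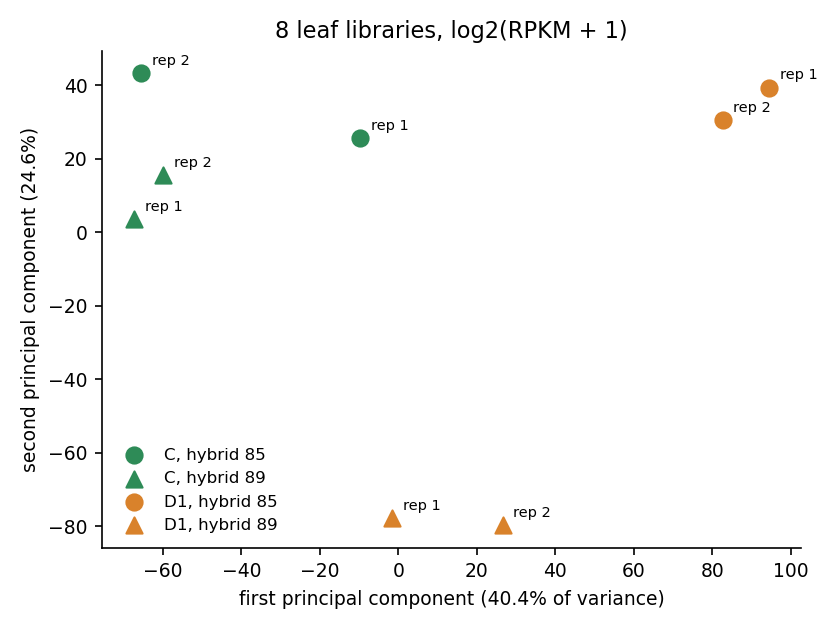
First and second principal component of log2(RPKM + 1) over the 22557 tested genes, 1 point per library (circles hybrid 85, triangles hybrid 89; green C, orange D1). The D1 plants of hybrid 85 lie at 94.6 and 82.7 on the first component, those of hybrid 89 at -1.50 and 26.6, and C 85 plant 1 at -9.67, apart from the other controls.

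Moderate drought went with changes in both directions, most of them of moderate size. Of 22557 genes tested, 1148 were higher in D1 (5.09%) and 989 lower (4.38%), together 9.47% (limma with hybrid as covariate, Benjamini-Hochberg adjusted p below 0.05). The median change of the higher genes was 1.30 on the log2(RPKM + 1) scale, with an upper quartile of 1.87. The median of the lower genes was -1.39, with quartiles of -1.89 and -1.07. A change of at least 2 was found in 243 of the higher and 210 of the lower genes, at least 3 in 66 and 46, and at least 4 in 23 and 12. The D1 and C values of the 8 plants did not overlap in 1753 of the called genes, 82.0%. Overlap was judged on the same values as the call, so a high share was close to fixed and adds no support. Over all genes tested the share without overlap was 15.5%, 9.59% with D1 above C and 5.87% below.

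The split into higher and lower genes moved with the scaling and with single libraries. The median change of all genes was 0.13 in the deposited RPKM, 0.03 once the libraries were quantile normalized, and 0.02 under median-ratio scaling. Called changes are to be read relative to that shift. The higher genes were 53.7% of the calls, but 42.0% after quantile normalization, from 890 rises and 1231 falls, and 38.4% after median-ratio scaling, from 844 rises and 1352 falls. The 2137 calls became 1401 without C 85 plant 2, 1012 without C 89 plant 1 and 1370 without C 89 plant 2. They became 1000 without D1 85 plant 1, 965 without D1 85 plant 2 and 940 without D1 89 plant 2. Without C 85 plant 1 there were 2291 calls, of which 1725 were among the 2137 and 60.6% were higher. Single libraries of hybrid 89 also turned the split, to 639 higher and 731 lower without C 89 plant 2, 848 and 948 without D1 89 plant 1, and 433 and 507 without D1 89 plant 2.

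**Figure D2:**
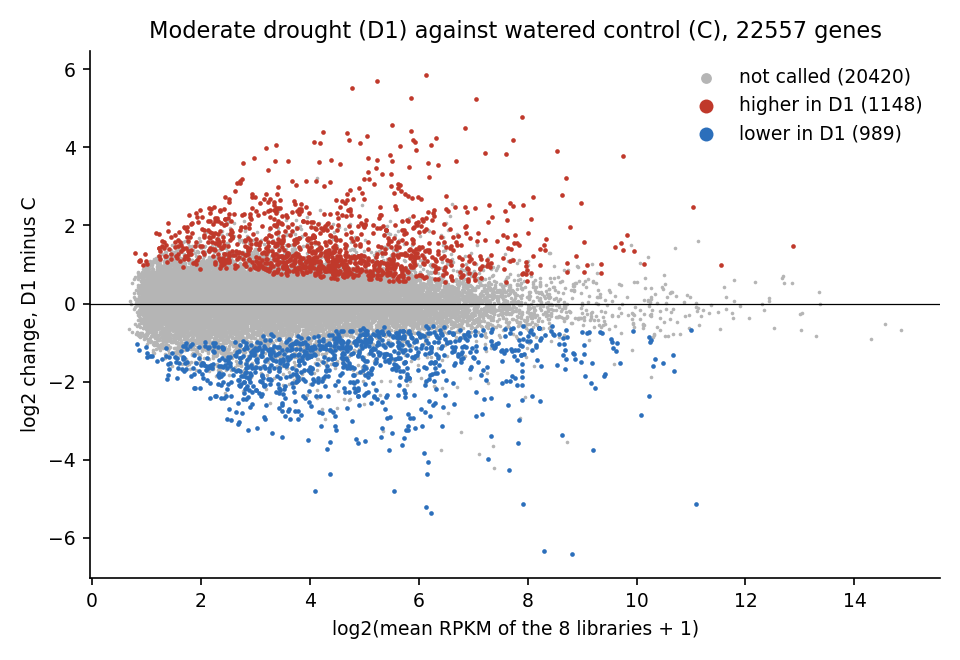
Log2 change of D1 minus C (vertical axis, log2(RPKM + 1) scale, from the limma fit with hybrid) against the mean level over the 8 libraries (horizontal axis, log2 of mean RPKM + 1), 1 point per tested gene. The 1148 higher genes (red) and 989 lower genes (blue) spread over most of the range of levels, and 5 rises and 6 falls pass 5 in size.

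With a pseudocount of 1, Potri.013G101000.1 (990 bp of coding length, chromosome number 13) had the largest fitted rise of the genes eligible to be named. Its level was 1.73 and 0.763 RPKM in the C plants of hybrid 85 and 0.494 and 1.20 RPKM in those of hybrid 89. In D1 it was 48.9 and 83.0 RPKM in hybrid 85 and 161.2 and 259.9 RPKM in hybrid 89. The groups lay far apart, and within D1 both plants of hybrid 89 were above both of hybrid 85. The C mean was 1.05 ± 0.540 RPKM and the D1 mean 138.3 ± 93.7 RPKM (SD, n = 4). The fitted log2 change was 5.86 ± 0.41 (SE; limma adjusted p = 0.000279). In D2 it stood higher still, at 2146 to 4306 RPKM.

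Potri.004G044300.1 (chromosome number 4, 1023 bp) was nearly silent in watered leaves, with 2 reads in replicate 1 of hybrid 85 and 0 in the other controls. In D1 its level was 19.4 and 25.7 RPKM in hybrid 85 and 124.7 and 125.4 RPKM in hybrid 89. The values separated by hybrid, those of hybrid 89 being the higher pair, and no D1 plant came near a control. The ratio of pooled reads, relative to the pooled totals of D1 and C, was 918, with an exact 95% counting interval of 253 to 7584, and the fitted log2 change was 5.70 ± 0.46 (SE; limma adjusted p = 0.000415). In D2 it stood at 10.1 to 38.7 RPKM, below both D1 plants of hybrid 89. The order of the rises depends on the pseudocount. With 0.1 the log2 change was 8.67 for this gene, 8.41 for a gene of 324 bp on chromosome number 9 and 6.77 for Potri.013G101000.1, and limma-voom on recovered reads gave 8.42, 6.75 and 6.73. With 5, Potri.013G101000.1 was at 4.32, below a gene of 513 bp on chromosome number 1.

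Potri.014G149700.1 (chromosome number 14, 1743 bp) and Potri.004G155400.1 (chromosome number 4, 300 bp) had the most negative fitted changes at a pseudocount of 1. The former had 348.2 and 610.8 RPKM in the C plants of hybrid 85 and 2170 and 428.8 RPKM in those of hybrid 89. In D1 it had 6.49 and 4.84 RPKM in hybrid 85 and 9.56 and 7.34 RPKM in hybrid 89. The controls were widely spread, with 1 plant of hybrid 89 far above the rest, while the D1 plants were close together and all below them. The C mean was 889.4 ± 860.5 RPKM and the D1 mean 7.06 ± 1.96 RPKM (SD, n = 4). The fitted log2 change was -6.41 ± 0.44 (SE; limma adjusted p = 0.000233), and in D2 the level was 0.717 to 1.27 RPKM.

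In Potri.004G155400.1 the controls had 106.3 and 1190 RPKM in hybrid 85 and 952.4 and 243.3 RPKM in hybrid 89. The D1 plants had 6.29 and 3.13 RPKM in hybrid 85 and 6.63 and 2.06 RPKM in hybrid 89, from 20 reads in all. High and low controls occurred in both hybrids, and the D1 values did not separate by hybrid. The C mean was 622.9 ± 529.4 RPKM and the D1 mean 4.53 ± 2.28 RPKM (SD, n = 4). The fitted log2 change was -6.33 ± 0.71 (SE; limma adjusted p = 0.0014). In D2 the gene was at 0 to 1.42 RPKM. The difference between the changes of Potri.014G149700.1 and this gene was smaller than either SE. With a pseudocount of 0.1 they were at -6.58 and -6.64, behind a gene of 459 bp on chromosome number 17 at -7.14, and without C 85 plant 1 they were at -6.62 and -7.09.

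**Figure D3:**
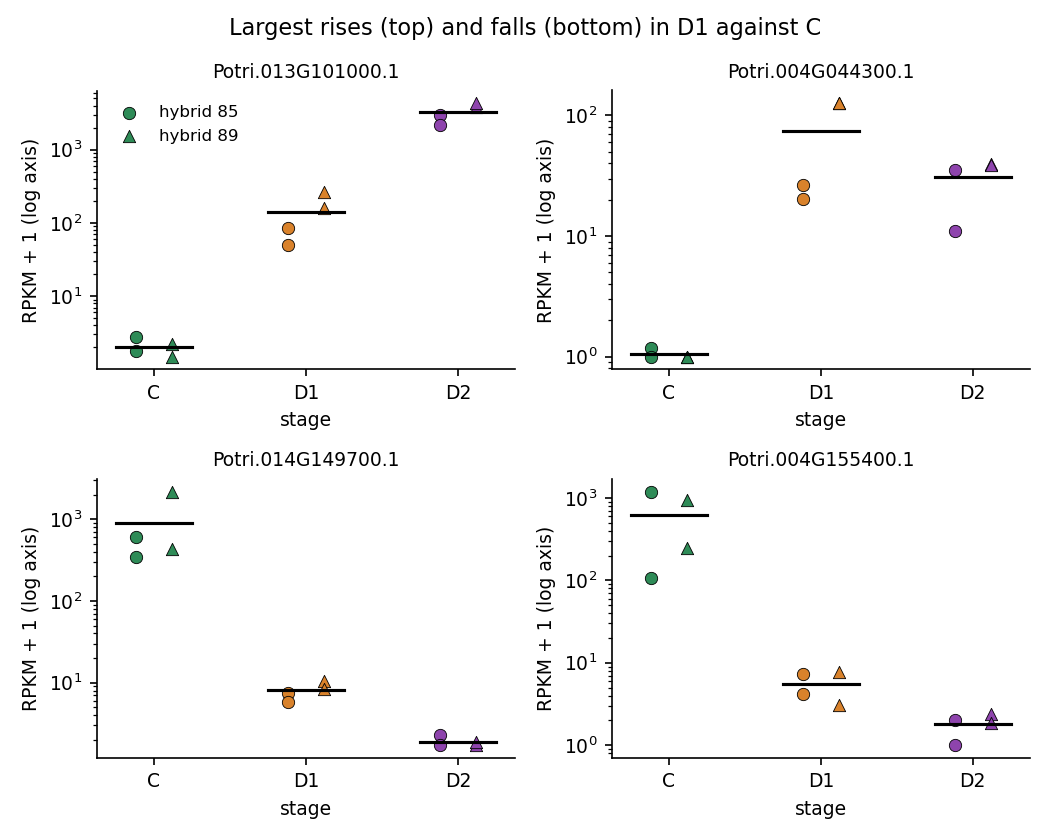
Level in each plant of the 2 genes with the largest rise and the 2 with the largest fall at a pseudocount of 1, an order that changes at 0.1 (RPKM + 1 on a log axis; circles hybrid 85, triangles hybrid 89; bars are stage means plus 1). All D1 points of Potri.013G101000.1 and Potri.004G044300.1 lie above all C points, all D1 points of Potri.014G149700.1 and Potri.004G155400.1 below them, and D2 is shown for comparison only.

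The next 4 genes in each direction had rises of 4.77 to 5.52 and falls of -5.37 to -5.13 on the log2 scale, with limma adjusted p between 0.000129 and 0.0075. The smallest of these rises, a gene of 513 bp on chromosome number 1, had 4.42 to 26.0 RPKM in C, 280.0 to 774.9 RPKM in D1 and 334.5 to 1214 RPKM in D2. A gene of 477 bp on chromosome number 4 had 1.58 to 8.20 RPKM in C, 63.3 and 78.0 RPKM in the D1 plants of hybrid 85, and 612.9 and 285.5 RPKM in those of hybrid 89. In both genes the D1 plants of hybrid 89 stood above those of hybrid 85.

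Among the falls, a gene of 810 bp on chromosome number 10 was low in D1 but not in D2. It had 54.6 to 256.9 RPKM in C, 0 to 10.7 RPKM in D1 and 99.9 to 897.9 RPKM in D2. A gene of 459 bp on chromosome number 17 had 52.9 to 200.2 RPKM in C and was listed at 0 in both D1 plants of hybrid 85 and in all 4 D2 plants, while the D1 plants of hybrid 89 kept 22.7 and 2.70 RPKM. The most abundant of the falls, a gene of 366 bp on chromosome number 18, had 1402 to 8795 RPKM in C. Its D1 level was 24.9 and 59.8 RPKM in hybrid 85 and 718.7 and 65.9 RPKM in hybrid 89, so that 1 D1 plant lay far above the other three.

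Called genes were more frequent among abundant transcripts, and falls outnumbered rises there. Of 231 genes that averaged 500 RPKM or more in the 8 libraries, 34 were lower in D1 (14.7%, against 4.38% of all genes tested) and 16 higher (6.93%, against 5.09%). Their median log2 change was -0.23, against 0.13 over all genes. Of 2730 genes between 50 and 500 RPKM, 279 were lower (10.2%) and 243 higher (8.90%). Of 12294 genes between 5 and 50 RPKM, 559 were lower (4.55%) and 711 higher (5.78%), and of 7302 genes below 5 RPKM, 117 were lower (1.60%) and 178 higher (2.44%). The median size of a change, called or not, was 0.39 in the lowest class, 0.37 in both middle classes and 0.48 in the highest. Low genes rest on fewer reads and their changes are understated on this scale. The part of this in the shares called was not tested. By quartile of coding length, higher genes made up 4.29 to 6.14% and lower genes 3.08 to 5.68% of those tested, with the lowest share of both among genes of 1698 bp or more.

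The excess of falls among genes of 500 RPKM or more held under both other scalings, with 30 lower and 19 higher after quantile normalization and 36 lower and 10 higher after median-ratio scaling. Among genes of 5 to 50 RPKM the balance turned: 746 were lower and 498 higher after quantile normalization, and 796 lower and 504 higher after median-ratio scaling. It turned below 5 RPKM too, at 178 lower and 159 higher and at 184 lower and 162 higher. The 34 falls became 21 without C 89 plant 1, 20 without D1 85 plant 1, 21 without D1 85 plant 2 and 20 without D1 89 plant 2. The 16 rises became 7 without C 89 plant 1, 8 without D1 85 plant 2 and 8 without D1 89 plant 2. In the fit on all 12 libraries there were 13 falls and 6 rises.

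The counts of the other classes moved as much. For 50 to 500 RPKM there were 149 rises and 152 falls without C 89 plant 1, 146 and 157 without D1 85 plant 1, 135 and 147 without D1 85 plant 2, and 138 and 158 without D1 89 plant 2. The fit on all 12 libraries gave 168 and 140, and that without C 85 plant 1 gave 278 and 273, so in these 2 fits rises outnumbered falls. For 5 to 50 RPKM, falls outnumbered rises without C 89 plant 2 (430 and 376), without D1 89 plant 1 (540 and 526) and without D1 89 plant 2 (287 and 251). Rises in that class numbered 431 without C 85 plant 2, 316 without C 89 plant 1, 302 without D1 85 plant 1 and 301 without D1 85 plant 2. Its falls numbered 256, 274 and 251 in the last 3 of these fits and 364 in the fit on all 12 libraries. Below 5 RPKM the rises ranged from 36 without D1 89 plant 2 to 194 without C 85 plant 1 and the falls from 38 without C 89 plant 1 to 117 without D1 89 plant 1. There too, falls outnumbered rises without D1 89 plant 1 (117 and 83) and without D1 89 plant 2 (42 and 36).

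The called genes carried a moderate part of all reads. The 1148 higher genes took 4.49 and 2.98% of the reads in the C plants of hybrid 85 and 3.37 and 3.43% in those of hybrid 89. In D1 they took 8.99 and 9.16% in hybrid 85 and 8.79 and 10.7% in hybrid 89. The 989 lower genes took 10.3 and 13.5% of the reads in the C plants of hybrid 85 and 14.0 and 12.3% in those of hybrid 89. In D1 they took 4.51 and 4.72% in hybrid 85 and 5.75 and 4.62% in hybrid 89. These shares describe the call itself and support nothing further; in both sets the value of C 85 plant 1 was the control value nearest to D1. In D2 the same higher genes took 10.5 to 14.2% and the same lower genes 6.73 to 7.67% of the reads.

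**Figure D4:**
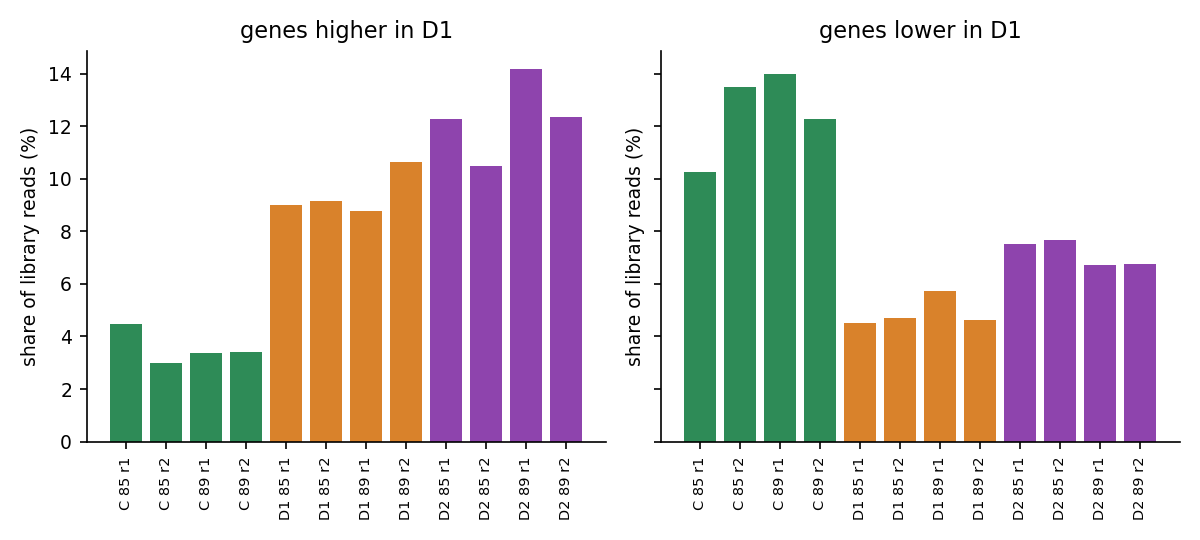
Share of each library's reads in the 1148 genes higher in D1 (left) and the 989 genes lower in D1 (right), in percent, 1 bar per plant (green C, orange D1, purple D2; r is the replicate number). The higher genes hold 2.98 to 4.49% of the reads in C and 8.79 to 10.7% in D1, the lower genes 10.3 to 14.0% in C and 4.51 to 5.75% in D1; the sets were chosen on these C and D1 plants.

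A few genes were read in 1 stage and hardly in the other. There were 7 genes with at least 10 reads in every D1 plant and at most 3 reads over the 4 controls. All were called higher, against 5.09% of all genes tested. The rule uses the same reads as the test, so this call was close to fixed and adds no support. Within C and D1, most of these genes reached 1 RPKM in D1 plants only. All of them also passed 1 RPKM in D2, where their highest values were 5.37 to 761.3 RPKM. Potri.004G044300.1 is one of them. A gene of 408 bp on chromosome number 2 had 0 to 0.926 RPKM in C, 9.14 to 36.4 RPKM in D1 and 186.1 to 761.3 RPKM in D2. A pair of genes on chromosome number 13, of 990 and 999 bp, had at most 0.0961 RPKM in any control and 9.29 to 28.4 and 5.97 to 14.7 RPKM in D1; in both, the D1 plants of hybrid 85 had the higher values. Without C 85 plant 1, 16 genes met the rule. Leaving a library out makes the rule easier to meet, but with any other library left out the number was 7 to 9. C 85 plant 1 had 10509089 reads, the most of any, and the part of depth in the 16 was not tested. With reads thinned to 2534284 per library, the number was 8.

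The reverse, at least 10 reads in every control and at most 3 over the D1 plants, held for 4 genes. Of these, 2 were called lower, against 4.38% of all genes tested, again on the same reads as the rule. None was left after thinning. With a library left out the rule is likewise easier to meet: 7 met it without C 85 plant 2, 8 without D1 89 plant 1 and 7 without D1 89 plant 2. A gene of 603 bp on chromosome number 1 had 3.78 to 25.1 RPKM in C and 1 D1 plant with 1.04 RPKM, the other D1 plants being at 0. In D2 it had 7.17 to 22.6 RPKM. The other three had at most 0.467 RPKM in any D2 plant.

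The D1 effect was also taken within each hybrid, from 2 plants per stage. In hybrid 85, 769 genes were higher (3.41% of those tested) and 1032 lower (4.58%), and in hybrid 89, 1710 were higher (7.58%) and 611 lower (2.71%; limma, adjusted p below 0.05). Over all genes tested the median change was -0.02 for hybrid 85 and 0.26 for hybrid 89. With quantile normalization the counts were 784 higher and 912 lower in hybrid 85 and 840 and 805 in hybrid 89. With median-ratio scaling they were 823 and 994 in hybrid 85 and 839 and 1271 in hybrid 89. The larger number of rises than falls in hybrid 89 thus turned with median-ratio scaling. In hybrid 85, 6 genes were called higher and 31 lower without D1 85 plant 1, 167 and 161 without D1 85 plant 2, 221 and 333 without C 85 plant 2, and 1458 and 1716 without C 85 plant 1. In hybrid 89, 336 were higher and 106 lower without C 89 plant 1, 230 and 96 without C 89 plant 2, 515 and 308 without D1 89 plant 1, and 235 and 114 without D1 89 plant 2. The counts of hybrid 89 also moved to 874 and 347 without D1 85 plant 1 and to 862 and 348 without D1 85 plant 2; all libraries share the estimate of spread in these fits. In the fit on all 12 libraries, 620 genes were higher and 848 lower in hybrid 85, and 1083 and 322 in hybrid 89.

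Across the 22557 genes the D1 effects measured in separate plants of either hybrid correlated at r = 0.41, as a description, since genes are not independent replicates. All 2137 genes called over both hybrids had the same sign in each; the call itself uses both. The median change of the higher genes was 1.18 in hybrid 85 and 1.40 in hybrid 89, and that of the lower genes -1.48 and -1.26. The value was greater in hybrid 89 in 60.5% of the higher genes, in 59.8% of the lower genes and in 65.0% of all genes tested. Both orders turned with the scaling. The medians were 1.21 and 1.18 for the higher genes and -1.43 and -1.48 for the lower genes after quantile normalization, where the value was greater in hybrid 89 in 49.3% and 48.0% of them and in 50.1% of all genes. After median-ratio scaling they were 1.20 and 1.13, and -1.45 and -1.54, with 45.5%, 44.4% and 51.1%. On the deposited RPKM, the change in 559 higher and 536 lower genes was at least 1 in both hybrids. A change of at least 1 in 1 hybrid beside less than 0.5 in the other was found in 35 higher and 25 lower genes.

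A test of the difference between the hybrids called 0 of 22557 genes by limma at adjusted p below 0.05. Of the same 22557 genes, 4797 had an unadjusted limma p below 0.05. Limma-voom on the recovered reads called 266, and limma called 713 without C 85 plant 1, the control that stood apart. An absence of calls with 2 plants per group is no evidence of an equal response. The smallest p belonged to a gene of 381 bp on chromosome number 5. It had 9.74 and 11.9 RPKM in C and 89.1 and 64.0 RPKM in D1 in hybrid 85, and 10.7 and 14.5 RPKM in C and 5.22 and 7.58 RPKM in D1 in hybrid 89. It was thus higher in D1 in both plants of hybrid 85 and lower in both of hybrid 89. The difference of its log2 changes, hybrid 89 minus hybrid 85, was -3.58 ± 0.41 (SE, limma adjusted p = 0.0567).

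The next smallest p belonged to a gene of 1893 bp on chromosome number 1 with the opposite pattern. In hybrid 85 it had 16.8 and 18.2 RPKM in C and 9.30 and 4.95 RPKM in D1. In hybrid 89 it had 6.11 and 8.96 RPKM in C and 47.5 and 51.8 RPKM in D1. The difference was 3.83 ± 0.44 (SE, limma adjusted p = 0.0567). With 1 library left out, the limma adjusted p of both genes was 0.0214 without C 85 plant 1 and 0.0834 to 0.168 without any other. The third gene, of 204 bp on chromosome number 18, had at most 6 reads in any library.

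**Figure D5:**
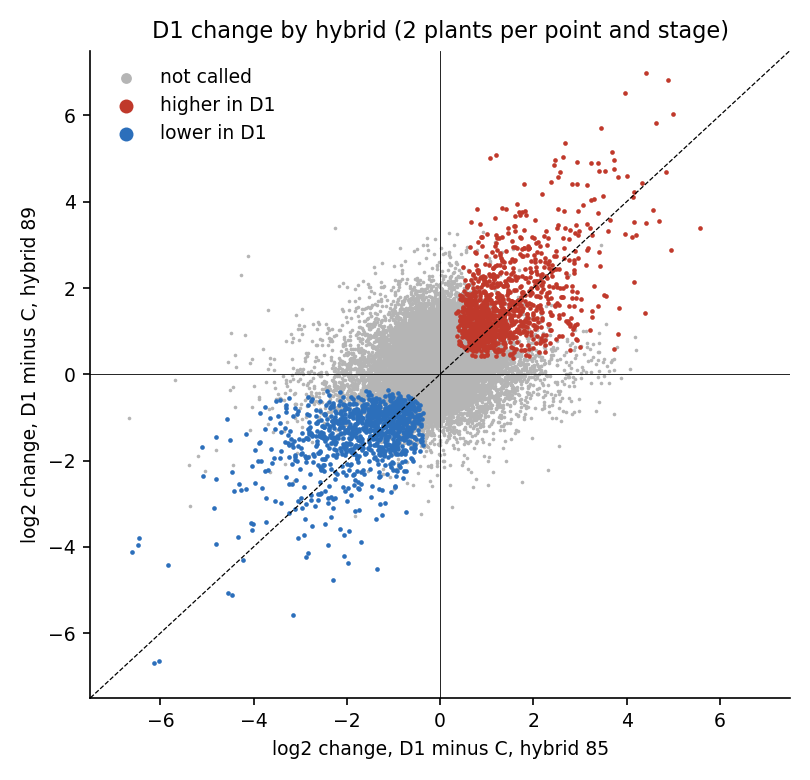
Log2 change of D1 minus C in hybrid 85 (horizontal axis) and hybrid 89 (vertical axis), 1 point per tested gene (red higher and blue lower in the fit over both hybrids, grey not called; the dashed line marks equal change). The red points have medians of 1.18 in hybrid 85 and 1.40 in hybrid 89, the blue points -1.48 and -1.26; the order of the hybrids turned in both sets under quantile normalization and median-ratio scaling.

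Called genes lay on every chromosome number. Higher genes made up 3.93% (chromosome number 17) to 7.16% (18) of the genes tested on a chromosome number, and lower genes 3.33% (5) to 6.87% (19). On chromosome number 18, 60 of 838 genes were higher and 33 lower, and on 19, 32 of 626 were higher and 43 lower. Of 625 genes with no chromosome number in the identifier, 19 were higher and 23 lower. No test was made of these shares.

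Some called genes stood next to each other. There were 15 runs of at least 3 identifiers in direct succession that were called in the same direction, 8 of higher genes with 26 members and 7 of lower genes with 22 members; the longest held 4. A run of 4 higher genes on chromosome number 4 had changes of 1.18 to 5.23. Its summed level was 58.6 and 38.6 RPKM in the C plants of hybrid 85 and 57.8 and 35.3 RPKM in those of hybrid 89. In D1 it was 168.8 and 223.7 RPKM in hybrid 85 and 799.5 and 398.2 RPKM in hybrid 89, all above the controls. The member with the largest change is the gene of 477 bp described above. Of these D1 sums it held 63.3 and 78.0 RPKM in hybrid 85 and 612.9 and 285.5 RPKM in hybrid 89.

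A run of 3 lower genes on chromosome number 1 had changes of -2.60 to -2.36 and was the most abundant of the runs. Its summed level was 2061 and 1745 RPKM in the C plants of hybrid 85 and 3367 and 2279 RPKM in those of hybrid 89. In D1 it was 254.2 and 339.4 RPKM in hybrid 85 and 809.1 and 511.0 RPKM in hybrid 89, below every control. A run of 3 lower genes on chromosome number 3, each of 1176 bp, had a median gene mean of 12.2 RPKM in C, 2.29 RPKM in D1 and 22.8 RPKM in D2. Neighbours can be near-identical copies, and how the authors assigned reads shared between copies is not given in the sources used here, so single members of a run are uncertain. The number of runs was 13 with quantile normalization, 15 with median-ratio scaling, 12 without C 85 plant 1, 4 with the replicate number as a block and 6 in a fit on all 12 libraries. It was 6 without C 85 plant 2, 2 without C 89 plant 1 and 3 without C 89 plant 2. It was 5 without D1 85 plant 1, 2 without D1 85 plant 2, 7 without D1 89 plant 1 and 2 without D1 89 plant 2.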

How the data were processed

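Leaf RNA was sequenced from TruSeq libraries, per the labels. The authors deposited RPKM values per gene and library, per the file headers. The submitters' processing notes list Trimmomatic 0.32. Aligner, counter, handling of strand and multiply mapped reads, genome build and annotation were not given in the sources used here, so near-identical copies and overlapping or antisense genes are uncertain. The 3 columns of stage means were not used.

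The RPKM values move in steps of 1 read. Of the values above 0, 100.0% came out within 0.01 reads of a whole number. A single multiplier of all library totals was set so that the lengths of 8118 well-read genes came nearest to multiples of 3 bp. With it 100% of them lay near such a multiple. The length of each gene was then set to the smallest multiple of 3 bp that made all its values whole reads. For genes with few reads the share of whole values was thus close to fixed, and their lengths and reads can come out too small. The lengths are taken as coding lengths because those of the well-read genes lay near multiples of 3 bp. Floors and intervals cover counting error only.

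Log2(RPKM + 1) was fitted with limma 3.58.1 in R 4.3.3 on the 8 libraries of C and D1, with stage and hybrid as terms, trended empirical Bayes variance and Benjamini-Hochberg adjustment. Changes are given on that log2 scale, on which those of low genes are understated. Genes needed 1 RPKM in at least 4 libraries. The hybrid effects came from a fit of 4 groups. Level classes use the mean over the 8 libraries. The recovery and the fit were tested on simulated data. Replicates are single plants with different clone numbers. The named genes are the largest changes in each direction that passed the test, averaged at least 5 RPKM and showed no overlap of the groups, 6 per direction, of which 2 each are given by identifier; for the hybrid difference, the 3 smallest p. The comparison, the lists and the rules were chosen with earlier results of these data known. The gene lists, cell type markers and promoter motifs of the plan needed gene names or sequences and were not run.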

Additional observations from a re-analysis of the deposited data

Results flagged for a closer look

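Of 24 groups of 4 values checked for a sample far from the rest, 5 had one. Chance gives about 1 in 20 for independent values of even spread. The groups flagged mix both hybrids, share libraries and in part use genes picked on these data. Their number therefore cannot be set against that rate. In C, replicate 1 of hybrid 85 was far from the other controls on the first principal component, at -9.67. It was also apart in the median level of the genes higher in D1, at 12.2 RPKM against 7.76 to 8.19 RPKM in the other controls. In D1, replicate 1 of hybrid 89 had the highest share of reads in the genes lower in D1, 5.75%, against 4.51 to 4.72% in the other D1 plants. Potri.004G044300.1 had 1 control above 0, replicate 1 of hybrid 85, at 0.25 on the log2(RPKM + 1) scale from 2 reads. The same gene had 1 low plant in D2, replicate 2 of hybrid 85, at 3.47 on that scale.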

How the results depend on the processing

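The 12 named genes are 6 rises and 6 falls, picked for large changes without overlap in these same data. In 21 other fits they gave 244 values, all with the same direction and a limma adjusted p of 1.88e-05 to 0.0308. A gene that fell below the filter when a library was left out has no value there. Potri.004G044300.1 and the gene of 324 bp on chromosome number 9 thus have none in the fits that left out a D1 plant. The count of calls, 2137 (1148 higher, 989 lower), was 1374 without a filter (726 and 648), 1390 without the hybrid term (738 and 652) and 1426 in a fit on all 12 libraries, with 626 lower. With each library left out in turn, calls ranged from 940 to 2291, higher genes from 433 to 1389 and lower genes from 461 to 948. Fewer libraries entered each of these fits. The replicate block, hybrid and replicate number together, gave 1174 calls (593 higher, 581 lower). Deviations of same-numbered plants from their group means correlated at 0.003 in hybrid 85 and 0.059 in hybrid 89. Each hybrid gives only 1 such value, which cannot show whether the numbers pair the plants. The test of the difference between hybrids called 0 genes, 266 with limma-voom on recovered reads, an alternative chosen after seeing the data, and 0 to 713 with each library left out; where a group kept 1 plant, it was assumed to vary like the others. Why these counts moved was not tested. The count of genes whose values did not overlap stayed within 1.5 times of 3487 under all alternatives run for it. With a library left out, a lack of overlap is easier to reach, and those counts all rose, to between 3895 and 5220. Thinning of reads, the runs and level classes under other fits, the hybrid medians under other scalings, and leaving libraries out for genes read in 1 stage were also added after seeing the data. Depth limits low genes most: 3 reads were worth 1.05 RPKM in the shallowest library at the median coding length.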
